A study of Mus musculus with 6 samples.

Results

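The Hox cluster genes are the homeobox genes of the HoxA, HoxB, HoxC and HoxD clusters, taken here as every gene symbol in the expression files made of Hox, a cluster letter and a paralog number. This gave 39 of 24063 symbols, with 11 in HoxA, 10 in HoxB, 9 in HoxC and 9 in HoxD. SA tumors were penile tumors of 3 male mice of genotype PB-Cre+ Smad4L/L ApcL/L, which arose without carcinogen, and the controls were penile epithelium of 3 male wild type (WT) C57BL/6 mice. All 6 mice were 5 months old, and total RNA was sequenced. PB-Cre4 carries Cre under a probasin promoter that responds to androgen, so Smad4 and Apc are recombined in prostate and penile epithelium. The comparison asks which Hox genes differ between penile tumor and normal penis. The background strain of the SA mice is not given in the sources used here, and strain and genotype cannot be told apart.

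Hox proteins are transcription factors that give cells along the body axis and in limbs and genitals their positional identity. Within each cluster the genes lie in the order of their paralog number, and the posterior genes, those with the highest numbers, are used in the most caudal and distal tissues, including the genital tubercle that forms the penis. Adult epithelium and stroma keep part of this pattern, and TALE homeodomain proteins of the Meis, Pbx and Pknox families bind DNA together with Hox proteins.

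The clusters lie on different chromosomes of mm10 (GRCm38). HoxA lies on chromosome 6, HoxB spans chr11:96194316-96368254, HoxC chr15:102921131-103036856 and HoxD chr2:74668225-74765142. The finding turned on Hoxd10 and Hoxd11, which lie side by side in HoxD with Hoxd12 as the next gene. The 250 bases before a RefSeq start site of each are shown. The Hoxd11 window lies before its coding transcript, and the windows of Hoxd11 and Hoxd10 lie inside the RefSeq spans of their genes. These neighbors were chosen because they had the highest fold changes among the tested members, in falling order from Hoxd11 to Hoxd10 to Hoxd12. All 3 are on the plus strand of GRCm38, at chr2:74674763-74675012 for Hoxd12, chr2:74682073-74682322 for Hoxd11 and chr2:74691641-74691890 for Hoxd10. Capitals mark the letters CTTTGAA, a form of the TCF/LEF motif of Wnt signaling.
Hoxd12: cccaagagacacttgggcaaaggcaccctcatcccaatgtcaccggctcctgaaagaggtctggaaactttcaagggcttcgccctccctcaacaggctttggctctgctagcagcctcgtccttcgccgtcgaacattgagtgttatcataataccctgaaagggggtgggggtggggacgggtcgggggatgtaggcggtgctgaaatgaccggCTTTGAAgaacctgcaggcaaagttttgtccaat
Hoxd11: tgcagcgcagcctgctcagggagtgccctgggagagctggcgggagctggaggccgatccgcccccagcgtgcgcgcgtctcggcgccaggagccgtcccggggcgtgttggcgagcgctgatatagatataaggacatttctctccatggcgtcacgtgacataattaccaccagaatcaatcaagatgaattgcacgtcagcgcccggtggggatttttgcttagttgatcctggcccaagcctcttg
Hoxd10: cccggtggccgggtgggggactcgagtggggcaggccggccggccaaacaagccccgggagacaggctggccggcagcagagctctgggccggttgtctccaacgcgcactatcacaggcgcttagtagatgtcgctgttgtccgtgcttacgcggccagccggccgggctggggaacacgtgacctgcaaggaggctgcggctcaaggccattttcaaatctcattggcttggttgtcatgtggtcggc

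The windows of Hoxd11 and Hoxd10 held 20 CpG dinucleotides each, the window of Hoxd12 held 10, and the median of 32851 promoter windows of the same length was 6. Their GC content was 60.4%, 65.6% and 55.6% in that order, against a median of 52.4%. The letters CTTTGAA or CTTTGAT, searched on both strands, occurred 34 to 28 bases before the start of Hoxd12 and not in the windows of Hoxd11 and Hoxd10. They were found in 2 of the 24 windows of 22 Hox genes in the RefSeq table, those of Hoxd12 and Hoxd8, and in 7.48% of all windows. CAATAAA, a motif of Hox13 and Cdx proteins, occurred in 1 of the 24, at Hoxb8, and in 4.20% of all windows. The palindromic SMAD motif GTCTAGAC occurred in 0 of the 24 and in 0.167% of all. A match of letters is a description and not a binding site.

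Levels are CPM, counts scaled to the size of each library after TMM normalization, which adjusts for library composition, and levels of different genes are compared as CPM per kb of transcript. Fold changes and adjusted p-values are from edgeR's quasi-likelihood test over 16336 genes, with Benjamini-Hochberg adjustment over all of them. Of the 39 members, 35 had enough counts to be tested. The libraries held 23828283 to 110509147 counts in gene rows, with the third SA tumor the deepest (4.42 times the median total of the other libraries). A floor of 3 counts was 0.0244 to 0.137 CPM. The replicates are separate mice, and in bulk tissue fewer cells of a type and less RNA per cell cannot be told apart.

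**Figure D1:**
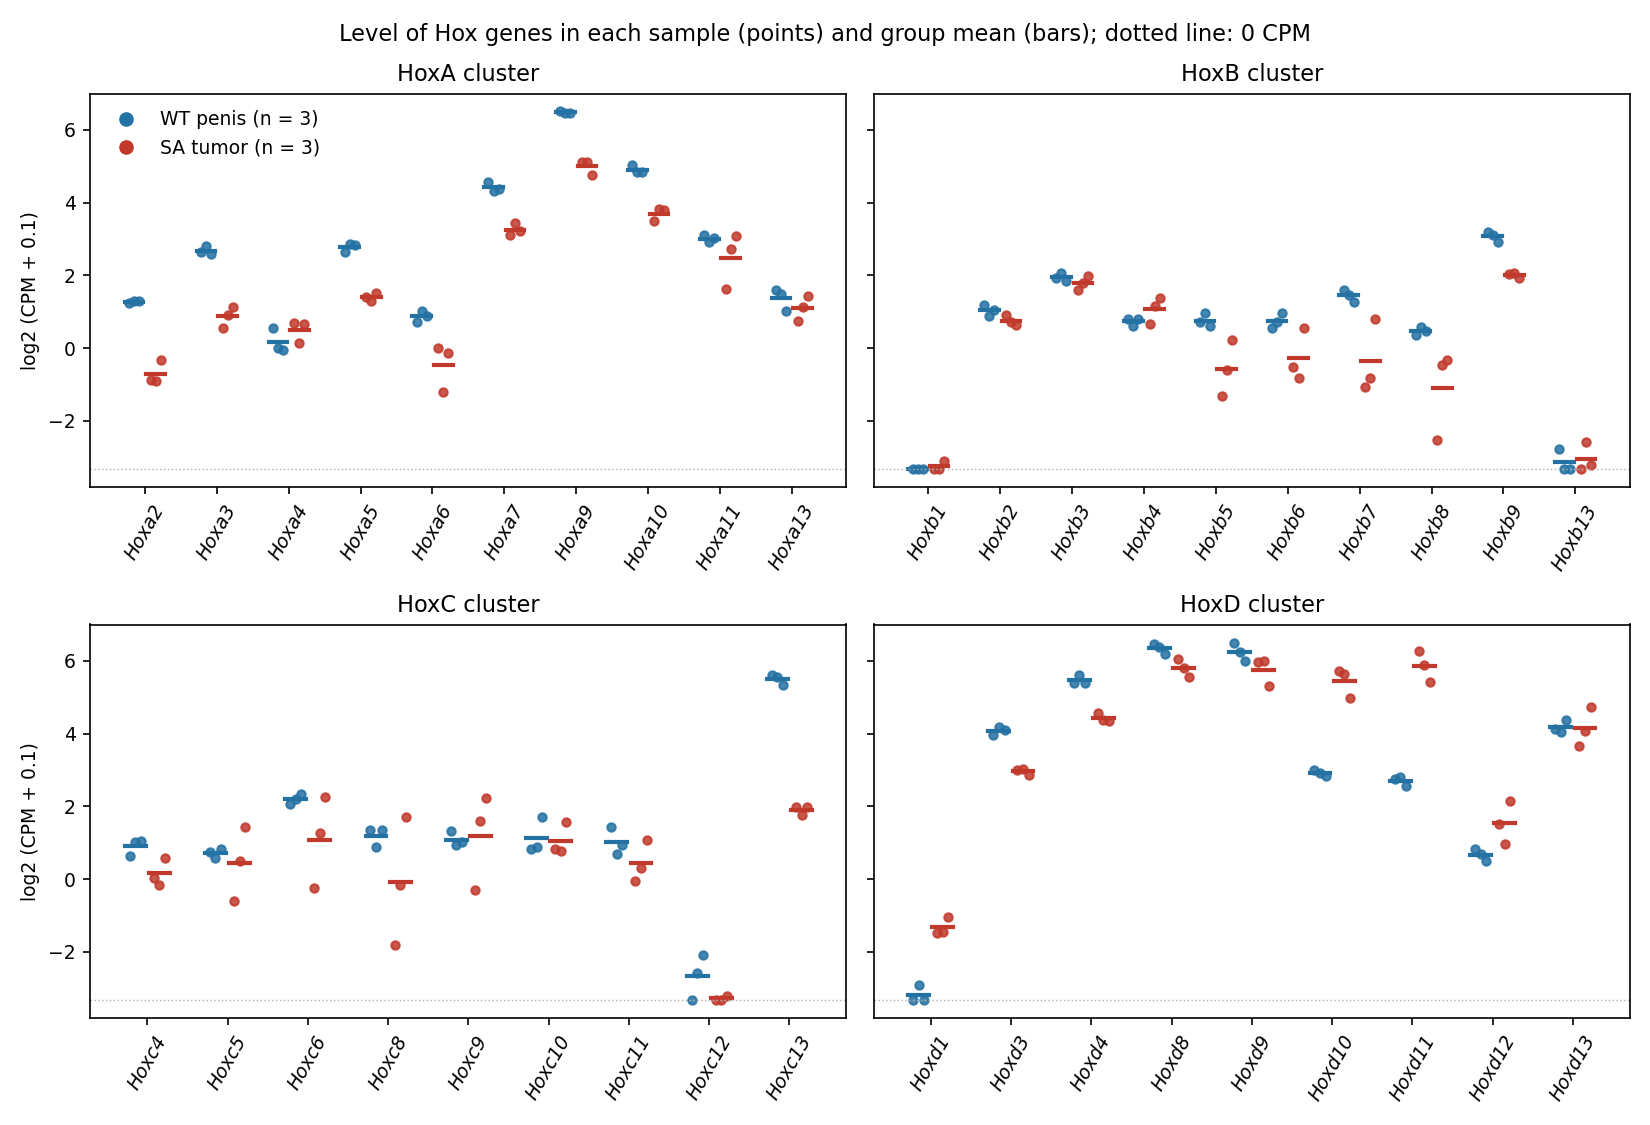
Level of the Hox genes shown in each sample, as log2 of CPM plus 0.1, by cluster and paralog number. Blue points are the 3 WT penises, red points the 3 SA tumors, bars the group means, and the dotted line 0 CPM. Hoxd10 and Hoxd11 of SA lie far above WT, Hoxc13 and most of HoxA lie below, and Hoxc5 to Hoxc9 and Hoxb5 to Hoxb8 spread widely among the SA tumors.

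A pair of HoxD neighbors was upregulated in SA tumors, while fold changes of most other Hox genes were below zero and a part of these passed the test. At an adjusted p-value under 0.01, 10 of the 35 tested members fell (28.6%, against 17.5% of all genes tested) and 2 rose (5.71%, against 20.1%). With a fold change of at least 4 as well, Hoxd10 and Hoxd11 passed in the upward direction (5.71%, against 9.41%) and Hoxa2 and Hoxc13 in the downward direction (5.71%, against 3.59%). The median log2 fold change of the 35 members was -0.55, against 0.03 over all genes tested, with 26 members below and 9 above zero. In 17 members every SA tumor was below every WT penis, against 30.7% of all genes tested, and in 3 members every SA tumor was above, against 32.7%. The shares of members that rose were thus below those of all genes, and the share that fell was above.

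Hoxd11, a posterior gene of limb, kidney and genital development, had the highest fold change of the members. Its RefSeq span in mm10 is chr2:74679558-74687016. SA tumors measured 77.7, 59.2 and 43.0 CPM, and WT penises 6.60, 6.88 and 5.79. The lowest tumor was thus several times above the highest WT penis. Hoxd11 rose 9.30-fold (log2 fold change 3.22, SE 0.224, edgeR adjusted p = 1.27e-05), and leaving out any 1 sample gave a log2 fold change of 2.98 to 3.41.

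Hoxd10, its neighbor, acts with Hoxd11 and Hoxd9 in limb and motor neuron patterning. SA tumors measured 53.0, 49.4 and 31.2 CPM, and WT penises 7.91, 7.44 and 6.97. The third tumor was the lowest of the 3 for both genes and still above every WT penis. Hoxd10 rose 5.97-fold (log2 fold change 2.58, SE 0.208, edgeR adjusted p = 2.51e-05), with 2.43 to 2.78 when 1 sample was left out.

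RefSeq places an alternative Hoxd10 start inside the Hoxd11 span, and the spans overlap by 2744 bases, chiefly over the last exon of Hoxd11. Hoxd11 has a coding and a noncoding transcript row in the files that share this last exon of 3114 bases, and the coding row has a first exon of its own of 845 bases. The noncoding row measured 53.7, 39.4 and 32.2 CPM in SA and 5.56, 6.34 and 6.11 in WT. The coding row exceeded it by 646, 598 and 1331 counts in SA, and by 23, 16 and -7 counts in WT. Scaled by depth the excess was 24.0, 19.8 and 10.8 CPM in SA, against 1.04, 0.53 and -0.32 in WT. Both the row without the coding first exon and the excess of the row that holds it were thus higher in every tumor than in any WT penis. The noncoding row held 0.665 to 0.749 of the coding row's count in SA and 0.842 to 1.06 in WT.

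The genes on both sides of this pair did not pass the test. Hoxd12 measured 2.75, 1.85 and 4.35 CPM in SA and 1.67, 1.50 and 1.32 in WT, without overlap, but missed the threshold (log2 fold change 1.02, SE 0.348, edgeR adjusted p = 0.0369). Hoxd13, the last gene of the cluster and a main regulator of digit and genital outgrowth, measured 12.6, 16.6 and 26.7 CPM in SA and 17.3, 16.4 and 20.5 in WT, and the groups overlapped (log2 fold change 0.06, SE 0.255, adjusted p = 0.866). Hoxd9 measured 62.8, 63.7 and 39.3 CPM in SA and 89.3, 76.3 and 64.0 in WT. Hoxd8 measured 66.7, 56.1 and 46.6 CPM in SA and 88.8, 83.5 and 72.4 in WT. Both lay below WT in every tumor without passing the test (edgeR adjusted p = 0.0785 for Hoxd9 and 0.0146 for Hoxd8). Hoxd8 was called lower by DESeq2 (adjusted p = 0.00534), and by edgeR with no filter (0.00938), with the replicate block (0.00661) or without the first SA tumor (0.00375).

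Hoxd3 and Hoxd4, anterior genes used in neck vertebrae and hindbrain, fell. Hoxd4 measured 23.6, 20.6 and 20.4 CPM in SA and 41.7, 48.4 and 42.1 in WT (log2 fold change -1.04, SE 0.115, edgeR adjusted p = 0.000135). Hoxd3 measured 7.92, 8.01 and 7.19 CPM in SA and 15.4, 18.1 and 16.9 in WT (log2 fold change -1.13, SE 0.135, adjusted p = 0.000207). The SA tumors were close to each other in both. The spans of Hoxd3 and Hoxd4 overlap by 7183 bases, while the GENCODE exons of their counted transcripts share none. Hoxd1, at the anterior end, had too few counts for the test, with 7, 8 and 48 counts in SA and 0, 1 and 0 in WT. The 63 SA counts against 1 WT count gave a ratio of 25.9 after scaling for depth, with an exact 95% interval of 4.48 to 1038 that covers counting error only.

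**Figure D2:**
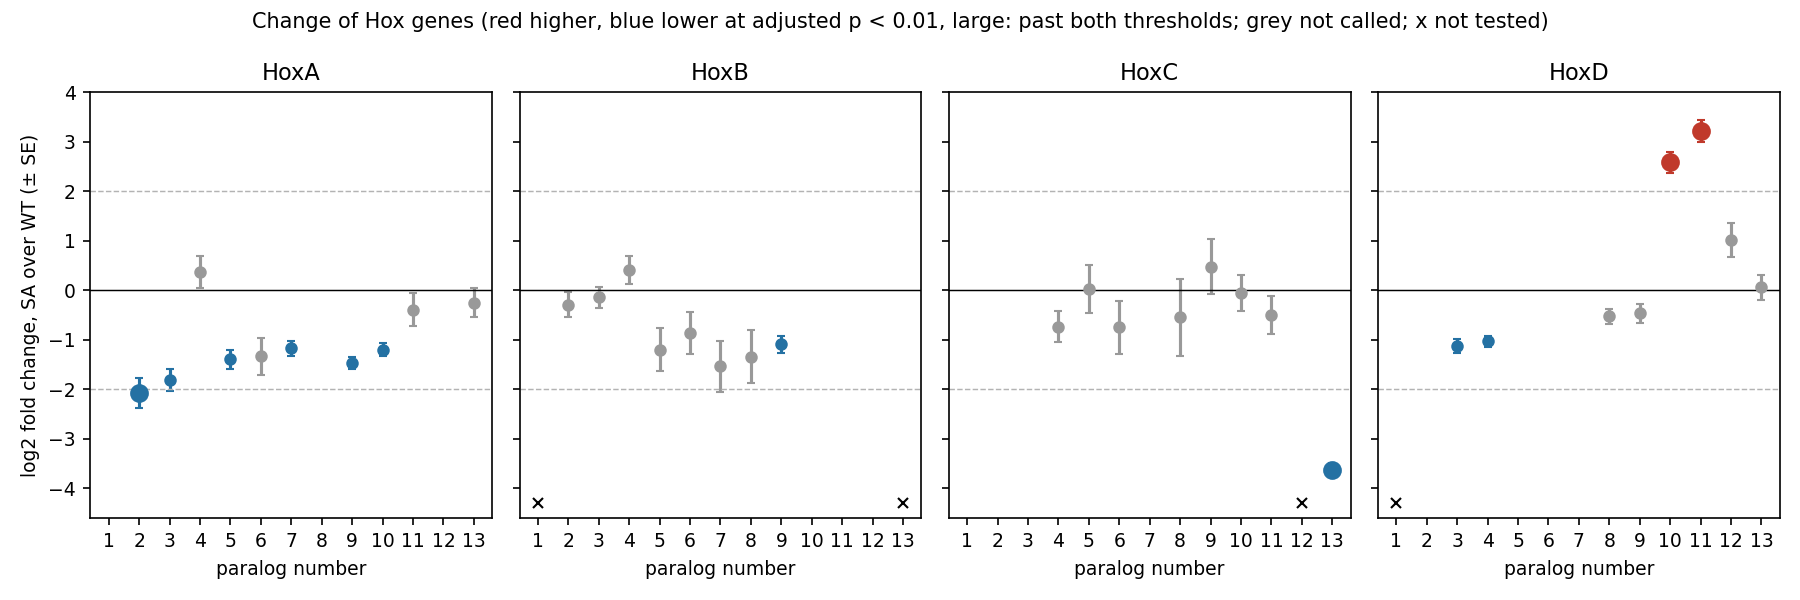
Log2 fold change of SA tumors over WT penises, with its standard error, against paralog number in each cluster, 3 samples per group. Red points rose and blue points fell at an adjusted p-value under 0.01, large points also passed a fold change of 4 (dashed lines), grey points did not pass and crosses were not tested. Hoxd10 at 2.58 and Hoxd11 at 3.22 stand above the upper line, and Hoxc13 at -3.63 and Hoxa2 at -2.07 below the lower one.

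By cluster, the median log2 fold change was -1.20 in HoxA, -0.98 in HoxB, -0.53 in HoxC and -0.21 in HoxD. The order of HoxA and HoxB depends on the third SA tumor, without which the medians were -1.25, -1.32, -1.01 and -0.29. In HoxA 6 of 11 tested genes fell, in HoxB 1 of 8, in HoxC 1 of 8 and in HoxD 2 of 8, against 17.5% of all genes tested. HoxB and HoxC (12.5% each) and HoxD (25%) were near that share, and HoxA (54.5%) was above it. Without the third SA tumor 4 of 8 fell in HoxB and 2 of 8 in HoxC, and the counts in HoxA and HoxD were as before. The share of all genes that fell when a sample was left out is not given, here or below. Both members that rose were in HoxD, where 2 of 8 (25%) was near the 20.1% of all genes tested that rose. In the other clusters 0 of 27 tested genes rose by edgeR, against the same 20.1%, and 0 were higher at an unadjusted p-value under 0.05. DESeq2, which tested 30, also gave 0 at both thresholds. The shares of all genes at the unadjusted threshold are not given, here or below. By paralog number, 4 of 10 tested genes of paralogs 1 to 4 fell (40%, median log2 fold change -0.52). In paralogs 5 to 8 this was 2 of 11 (18.2%, median -1.18), and in paralogs 9 to 13 4 of 14 (28.6%, median -0.33). Against 17.5% of all genes tested, the share of paralogs 5 to 8 was near and the others were above. Without the third SA tumor 6 of 11 of paralogs 5 to 8 fell (median -1.55), while the other ranges still had 4 of 10 and 4 of 14. The genes that rose had paralog numbers 10 and 11, and paralogs 9 to 13 had 14.3% that rose, against 20.1% of all genes tested. Of the other tested members with numbers 10 and 11, Hoxa10 fell. Hoxc10, Hoxa11 and Hoxc11 had fold changes below zero that did not pass, with overlapping groups. None of these other paralogs was thus called higher.

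Hoxc13 had the lowest fold change of the members. It is required for hair and nail, where it acts on hair keratin genes and on Foxn1, a regulator of keratinocyte differentiation, and lies at the posterior end of HoxC at chr15:102921131-102928814. SA tumors measured 3.86, 3.28 and 3.83 CPM, and WT penises 49.1, 46.7 and 40.0. The tumors were alike and all far below WT. Hoxc13 fell 12.3-fold (log2 fold change -3.63, SE 0.140, edgeR adjusted p = 1.62e-06), with -3.73 to -3.56 when 1 sample was left out.

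The other posterior paralogs of number 13 did not move with Hoxc13. Hoxa13, which with Hoxd13 patterns the genital tubercle, measured 1.56, 2.09 and 2.60 CPM in SA and 2.94, 2.70 and 1.91 in WT (log2 fold change -0.26, edgeR adjusted p = 0.485, with the sign changed when libraries were scaled by their totals only). Hoxb13, a gene of prostate and hindgut, had 3 counts over the SA tumors and 1 over the WT penises. Per length, the ratio of Hoxc13 to Hoxd13 was 0.312, 0.201 and 0.147 in SA and 2.90, 2.90 and 2.00 in WT. These ratios are a description of pairs chosen with the values known.

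Genes of a hair follicle list, of hair keratins, inner root sheath keratins and regulators, among them targets of Hoxc13, also differed. Of the 8 on the list, 5 fell (62.5%, against 17.5% of all genes tested) and 3 rose (37.5%, against 20.1%). Their summed level was 223 to 546 CPM in SA and 1339 to 1826 in WT. The hair keratins Krt31, Krt85 and Krt86 fell (log2 fold changes -3.80, -3.75 and -4.76). Foxn1 fell as well, with a log2 fold change of -1.43. Krt71 and Krt27, keratins of the inner root sheath, rose from 0 to 0.23 and 0.13 to 0.63 CPM in WT to 15.8 to 76.2 and 71.0 to 242 CPM in SA. Lhx2, a regulator of hair follicle stem cells, rose from 0 to 0.36 CPM to 13.1 to 16.8 CPM. Krt71, Krt27 and Lhx2 met the count filter only through the SA tumors, so only a rise could have been called for them. Any part of Hoxc13 in these differences was not tested.

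In HoxA, the genes from Hoxa2 to Hoxa10 were low in the tumors with Hoxa4 as the exception. Hoxa9, a gene of posterior patterning and of blood progenitors, measured 34.8, 34.5 and 27.04 CPM in SA and 91.0, 88.1 and 88.9 in WT. It fell 2.79-fold (log2 fold change -1.48, SE 0.119, edgeR adjusted p = 2.43e-05). Hoxa10, known from uterine and male reproductive tract development, measured 11.1, 14.04 and 13.7 CPM in SA and 32.7, 28.6 and 28.4 in WT, and fell 2.30-fold (log2 fold change -1.20, SE 0.134, adjusted p = 0.000137). The groups were well apart for both.

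Hoxa7 measured 8.47, 10.7 and 9.23 CPM in SA and 23.7, 19.8 and 20.8 in WT and fell (log2 fold change -1.18, SE 0.143, edgeR adjusted p = 0.000215). Hoxa5, needed for lung and trachea, measured 2.56, 2.35 and 2.76 CPM in SA and 6.15, 7.14 and 7.06 in WT (log2 fold change -1.40, SE 0.190, adjusted p = 0.000408). Hoxa3, a gene of the pharyngeal arches and thymus, measured 1.38, 1.79 and 2.10 CPM in SA and 6.10, 6.84 and 5.92 in WT (log2 fold change -1.82, SE 0.229, adjusted p = 0.000268). All 3 were lower in each tumor than in each WT penis. The spans of Hoxa3 and of Hoxa4, Hoxa5 and Hoxa6 overlap on the same strand by 2022 to 3815 bases. The GENCODE exons of the counted Hoxa3 transcript share no bases with those of these genes.

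Hoxa2, the most anterior member that fell and a regulator of the second pharyngeal arch, measured 0.446, 0.430 and 0.698 CPM in SA and 2.26, 2.34 and 2.37 in WT. It fell 4.21-fold (log2 fold change -2.07, SE 0.300, edgeR adjusted p = 0.000569), just past the fold threshold, and without the first or the second SA tumor it did not reach that threshold. Hoxa6 measured 0.892, 0.331 and 0.804 CPM in SA and 1.54, 1.94 and 1.73 in WT and missed the edgeR test (adjusted p = 0.0168), while DESeq2 called it lower (log2 fold change -1.36, adjusted p = 0.00575). Hoxa4 measured 1.52, 0.993 and 1.47 CPM in SA and 1.36, 0.901 and 0.866 in WT, with overlapping groups (log2 fold change 0.37, adjusted p = 0.366).

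Toward the posterior end of the cluster, Hoxa11 (log2 fold change -0.40) and Hoxa13 did not pass the test either. Hoxa11, a gene of limb and uterus, measured 2.97, 6.46 and 8.45 CPM in SA and 8.45, 7.44 and 8.02 in WT. Its exons share 568 bases, 24.8% of their length, with the antisense Hoxa11os, which measured 3.27, 5.66 and 7.64 CPM in SA and 7.96, 9.48 and 8.11 in WT. The strand setting of the count is not given in the sources used here, and reads of the pair cannot be told apart.

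In HoxB, Hoxb9 fell. This gene of thoracic patterning and mammary gland measured 3.98, 4.07 and 3.71 CPM in SA and 9.04, 8.58 and 7.52 in WT (log2 fold change -1.10, SE 0.171, edgeR adjusted p = 0.000851). Hoxb2, Hoxb3 and Hoxb4, used in hindbrain and blood stem cells, had log2 fold changes of -0.30, -0.15 and 0.40 and did not pass. The sign of Hoxb3 changed when libraries were scaled by their totals only. Hoxb5 to Hoxb8 had values of -1.20, -0.87, -1.54 and -1.34 and did not pass with all samples. By edgeR 0 of these 4 passed, 3 were lower at an unadjusted p-value under 0.05, and DESeq2 called 1, Hoxb7. Hoxb1 had 2 counts over the SA tumors and 0 over the WT penises.

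In HoxC outside Hoxc13, the 7 tested genes had log2 fold changes of -0.75 to 0.48, and of -2.13 to -0.15 without the third SA tumor. Of the 7, edgeR called 0, with 1, Hoxc4, at an unadjusted p-value under 0.05, and DESeq2 called 0. Hoxc10, a gene of hindlimb, measured 1.67, 1.62 and 2.85 CPM in SA and 1.67, 1.74 and 3.14 in WT (log2 fold change -0.06, edgeR adjusted p = 0.902, with the sign changed when libraries were scaled by their totals only). Hoxc11 measured 0.855, 1.13 and 2.00 CPM in SA and 2.58, 1.50 and 1.82 in WT. Hoxc4 measured 0.929, 0.795 and 1.40 CPM in SA and 1.45, 1.94 and 1.96 in WT. Of these 3 genes, Hoxc4 alone had groups that did not overlap. Hoxc12 had 1 count over the SA tumors and 5 over the WT penises.

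Middle genes of HoxB and HoxC differed more among the SA tumors than most genes. Hoxc8, a gene of thoracic patterning, measured 0.186, 0.795 and 3.17 CPM in SA and 2.44, 1.74 and 2.46 in WT. Its highest tumor was 17.0 times its lowest, against a median of 1.29 and a 95th percentile of 2.93 over all genes tested. The lowest tumor held 5 counts of Hoxc8, and counts this few widen the ratio by sampling alone. Most genes tested were not matched to it in level. Hoxc6 measured 0.743, 2.28 and 4.67 CPM, Hoxc9 0.706, 2.91 and 4.62, and Hoxc5 0.557, 1.32 and 2.61 in the SA tumors. The same ratio was 6.28 for Hoxc6, 6.54 for Hoxc9 and 4.68 for Hoxc5, and 1.20 to 1.33 for the 3 among WT penises.

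Hoxb8 measured 0.0743, 0.629 and 0.698 CPM in SA and 1.18, 1.40 and 1.28 in WT. Its value in the first SA tumor rests on 2 counts, below the floor of 3. Hoxb7 measured 0.372, 0.463 and 1.65 CPM in SA and 2.94, 2.67 and 2.32 in WT. Hoxb5 measured 0.297, 0.563 and 1.06 CPM in SA and 1.54, 1.84 and 1.41 in WT. These 3 genes were lower in every tumor than in any WT penis, and the third tumor came nearest to WT in each. Hoxb6 measured 0.595, 0.463 and 1.37 CPM in SA and 1.36, 1.54 and 1.87 in WT, and its groups overlapped. The third SA tumor was the highest of the 3 in 7 of 8 tested HoxC genes, 6 of 8 HoxB genes, 6 of 11 HoxA genes and 2 of 8 HoxD genes. How often this tumor was the highest over all genes tested is not given, so these counts are not read as a trait of Hox genes. Without the third SA tumor Hoxb5, Hoxb6, Hoxb7 and Hoxc8 also fell at an edgeR adjusted p-value under 0.01, with log2 fold changes of -1.87, -1.58, -2.64 and -2.13. Without it the log2 fold changes of Hoxc5, Hoxc9 and Hoxd13, which did not pass, also changed sign, from 0.01 to -0.70, 0.48 to -0.15 and 0.06 to -0.30, and that of Hoxc6 went from -0.75 to -1.55.

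Marker levels of other cell types moved in the same order among the tumors. The counts of markers here and below stand beside 20.1% of all genes tested that rose and 17.5% that fell. The summed level of 10 fibroblast markers, led by Col3a1 and Dcn, was 1539, 4268 and 5403 CPM in SA and 6483 to 6845 in WT, and 1 of the 10 rose and 2 fell. That of 8 leukocyte markers, led by Laptm5 and Coro1a, was 96.7, 186 and 281 CPM in SA and 69.9 to 109 in WT, and 1 of the 8 rose. That of 8 smooth muscle markers, led by Myh11 and Acta2, was 92.6, 167 and 204 CPM in SA and 1667 to 2195 in WT, and all 8 fell. No defining marker of these lists was at 0. Their part in the spread of the HoxB and HoxC genes, and in the fall of other Hox genes, was not tested.

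**Figure D3:**
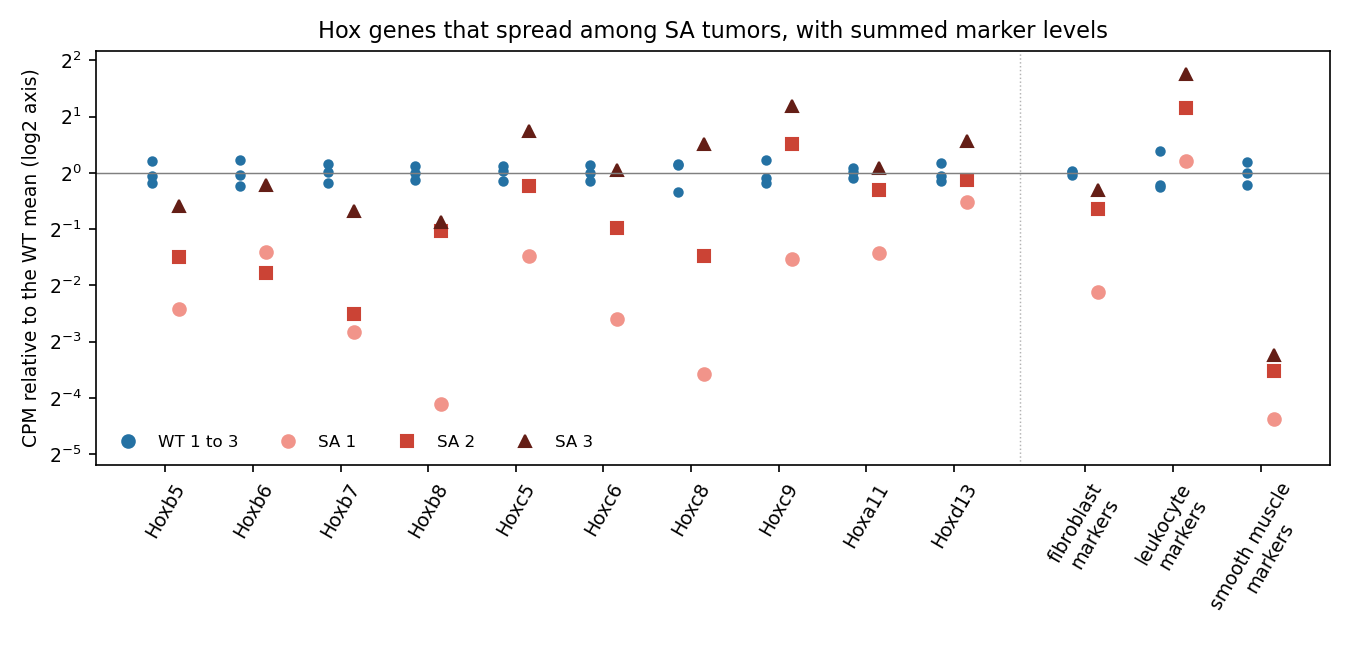
Level of 10 Hox genes in each sample relative to the WT mean on a log2 axis, beside the summed levels of fibroblast, leukocyte and smooth muscle markers. Blue points are WT penises and red symbols the 3 SA tumors. In Hoxc5, Hoxc6, Hoxc8, Hoxc9, Hoxb5 and Hoxb7 the tumors stand in the order of the fibroblast sums of 1539, 4268 and 5403 CPM, from SA 1 to SA 3.

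Hoxd10 and Hoxd11 ran in the opposite order, with the highest level in the first tumor, which had the lowest fibroblast and leukocyte sums. Hoxd8 and Hoxd4, which lay below WT, ran in this order too, while Hoxd3, Hoxd9, Hoxd12 and Hoxd13 did not. The order was thus not particular to the pair that rose. Squamous epithelium markers, led by Krt10 and Krt1, summed to 25333 to 30017 CPM in SA and 69246 to 75687 in WT, with 1 of 10 higher and 6 lower. Endothelial markers, led by Pecam1 and Vwf, summed to 183 to 315 CPM in SA and 339 to 426 in WT, and 2 of 8 fell. Schwann cell and nerve markers, Mbp among them, summed to 62.5 to 79.4 CPM in SA and 192 to 231 in WT, with 1 of 6 higher and 3 lower. Skeletal muscle markers, led by Acta1, summed to 7.42 to 9.62 CPM in SA and 11.7 to 17.1 in WT, with 1 of 5 tested higher and 1 lower. The marker that was higher met the count filter only through the SA tumors. Prostate markers were near 0 apart from Tgm4, which was at 13.1 to 16.9 CPM in all samples, and Pbsn was at 0 in every sample. Both groups thus carried squamous epithelial markers at a high level.

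Scaled by transcript length and summed over the 39 genes, Hox RNA came to 156 ± 11.8 CPM per kb (SD, n = 3) in the tumors and 218 ± 13.7 in normal penis. The HoxD sum was alike in both groups, with 113.0 ± 18.8 in SA and 112.8 ± 9.69 in WT. HoxA summed to 28.5 ± 1.62 in SA and 66.4 ± 2.51 in WT, HoxB to 6.03 ± 1.36 and 10.6 ± 0.466, and HoxC to 8.89 ± 4.53 and 28.4 ± 1.58. The HoxD share of all Hox RNA was 77.9%, 73.3% and 64.5% in SA and 52.3%, 52.6% and 50.02% in WT. Hoxd10 held 15.2 ± 3.01% in SA and 1.84 ± 0.006% in WT, and Hoxd11 held 9.58 ± 2.15% and 0.743 ± 0.043%. Hoxc13 held 0.966 ± 0.132% in SA and 8.52 ± 0.393% in WT.

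**Figure D4:**
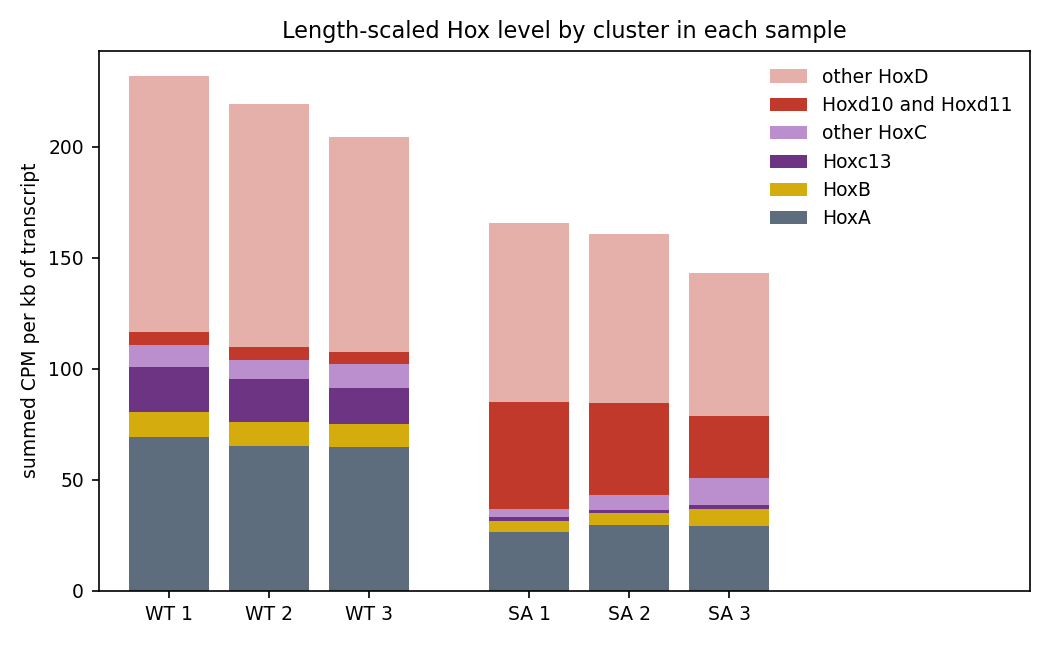
Summed level of the Hox genes per kb of transcript in each sample, as stacked bars by cluster, with Hoxc13 and the sum of Hoxd10 and Hoxd11 drawn apart. SA tumors sum to 143 to 166 CPM per kb and WT penises to 204 to 232, and the HoxD parts together take 64.5% to 77.9% of the bar in SA and 50.02% to 52.6% in WT.

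The order of Hox genes by level per kb was the same for the first 2 in both groups. In WT it ran Hoxd8 (39.8 ± 4.07), Hoxd9 (36.4 ± 6.02), Hoxa9 (27.7 ± 0.462), Hoxc13 (18.6 ± 1.94) and Hoxd4 (17.2 ± 1.47), and in SA Hoxd8 (27.6 ± 4.90), Hoxd9 (26.3 ± 6.58), Hoxd10 (24.1 ± 6.33), Hoxd11 (15.1 ± 4.39) and Hoxa9 (9.94 ± 1.36), each as mean ± SD of 3 samples. The means of Hoxd8 and Hoxd9 lay within their spread between mice in each group. So did those of Hoxc13 and Hoxd4 in WT and of Hoxd10 and Hoxd9 in SA. Within samples, Hoxd8 was above Hoxd9 in every WT penis, and Hoxd10 was below Hoxd9 in every SA tumor. The order of genes this close was not tested. Hoxd11 stood at place 20 of 39 in WT and at place 4 in SA, and Hoxc13 at place 4 in WT and 15 in SA. The level of Hoxd10 per kb was 0.958, 0.881 and 0.900 of that of Hoxd9 in SA and 0.101, 0.111 and 0.124 in WT. Hoxd11 per kb was 15.1, 5.30 and 2.94 times Hoxa11 in SA and 0.451, 0.534 and 0.417 times in WT. In the tumors Hoxd10 thus came close to its neighbor Hoxd9 per length, and in WT it was far below it.

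Among the TALE cofactors, 5 of 9 tested fell, against 17.5% of all genes tested, and Meis3 rose. Meis2, which opens a proximal program in limb buds, measured 39.1, 39.8 and 63.5 CPM in SA and 180, 212 and 208 in WT (log2 fold change -2.07, SE 0.196, edgeR adjusted p = 6.19e-05). Pknox2 measured 0.520, 0.530 and 0.991 CPM in SA and 6.74, 7.94 and 9.52 in WT (log2 fold change -3.47, SE 0.314, adjusted p = 4.60e-05). The median log2 fold change of the list was -0.35. Meis1 and Pbx3, with log2 fold changes of -0.87 and -0.79, were among the others that fell.

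Within the clusters, 2 of the 7 noncoding RNAs tested fell (28.6%, against 17.5% of all genes tested), both loci of miR-196 hairpins. Reads at Mir196a-1, between Hoxb9 and Hoxb13, measured 1.19, 1.32 and 1.38 CPM in SA and 3.35, 3.84 and 3.92 in WT (log2 fold change -1.50, edgeR adjusted p = 0.00077). Those at Mir196b, between Hoxa9 and Hoxa10, measured 1.19, 1.99 and 1.34 CPM in SA and 3.21, 3.71 and 3.55 in WT (log2 fold change -1.22, adjusted p = 0.00537). Total RNA libraries read the host transcript here and not the mature miRNA. The mature 5p miRNAs of both loci are shown because they share a seed (capitals, bases 2 to 8), AGGUAGU, and are known to act on Hox transcripts. They lie at chr11:96265187-96265208 (plus strand) and chr6:52230129-52230150 (minus strand) of GRCm38.
miR-196a-5p: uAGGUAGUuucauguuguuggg
miR-196b-5p: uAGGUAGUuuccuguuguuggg

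Hotair, an RNA of HoxC, measured 0.520, 0.397 and 1.01 CPM in SA and 0.452, 1.00 and 0.820 in WT, and Haglr, beside Hoxd1, measured 1.08, 1.62 and 1.23 CPM in SA and 0.723, 0.968 and 0.866 in WT. Neither passed the test (edgeR adjusted p = 0.784 and 0.123).

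Of the genes that flank the clusters, 3 of 9 tested rose (33.3%, against 20.1% of all genes tested) and 1 fell (11.1%, against 17.5%). Evx1, a homeobox gene next to Hoxa13 known from the caudal embryo, measured 10.2, 6.92 and 6.37 CPM in SA and had 1, 0 and 1 counts in WT. Halr1, a noncoding RNA outside the HoxA cluster, measured 2.60, 1.95 and 1.96 CPM in SA and had 0, 0 and 1 counts in WT. Both passed the thresholds (edgeR adjusted p = 8.42e-06 and 4.81e-05), while Evx2, next to Hoxd13, measured 0.557, 0.563 and 1.55 CPM in SA and 0.769, 0.868 and 0.729 in WT. Evx1 and Halr1, 2 of the 3 that rose, met the count filter only through the SA tumors. Only a rise could have been called for them. Evx1 thus rose beside Hoxa13, which did not pass.

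Upstream patterning genes of the caudal body and genital tubercle gave 9 that rose and 3 that fell of 14 tested, against 20.1% and 17.5% of all genes tested. Cdx1 and Cdx2, homeobox factors that act on Hox genes in the caudal embryo, measured 11.7, 9.37 and 11.4 CPM and 1.56, 1.72 and 0.755 CPM in SA. In WT, Cdx1 had 1, 0 and 1 counts and Cdx2 had 0 in every library. Shh, the signal of the urethral epithelium, measured 116, 90.5 and 92.3 CPM in SA and 0.362, 0.300 and 0.319 in WT (log2 fold change 8.25, edgeR adjusted p = 6.09e-07). Gdf11, which acts on posterior Hox genes in the trunk, measured 11.7, 5.73 and 7.24 CPM in SA and 0.362, 0.401 and 0.820 in WT (log2 fold change 3.97, adjusted p = 9.16e-05). Each of these genes was higher in every tumor than in any WT penis. Like Fgf8 and Cyp26a1 below, they met the count filter only through the SA tumors. Only a rise could have been called for them, so the count of 9 rests in part on the filter.

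Bmp7 (log2 fold change 3.56), Hand2 (2.86) and Fgf8 (5.31), the latter at 1.59 to 1.90 CPM in SA and 1 count in each WT library, rose too. Cyp26a1, an enzyme that breaks down retinoic acid, rose to 10.5, 10.2 and 4.91 CPM in SA from 1, 0 and 0 counts in WT. Rarg, a retinoic acid receptor, and Isl1, a factor of genital mesenchyme and epithelium, fell, with log2 fold changes of -1.39 and -1.79. Rarb, a further retinoic acid receptor, fell too (log2 fold change -0.76, edgeR adjusted p = 0.00664). Cyp26b1, the other Cyp26 enzyme on the list, did not pass (log2 fold change -0.10, adjusted p = 0.626).

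Polycomb proteins keep Hox genes silent and Trithorax proteins keep them active. Of 21 Polycomb genes, 8 fell, against 17.5% of all genes tested, and 4 rose, against 20.1%, which is close to the 19.0% of this list. Cbx7, a subunit that reads the H3K27 methyl mark, was among those that fell (log2 fold change -1.60). Of 14 Trithorax and H3K27 demethylase genes, 2 rose, Mllt3 (log2 fold change 1.60) and Ash2l (0.74), and the other 12 did not pass, a share that rose of 14.3% against 20.1% of all genes tested. Median log2 fold changes were -0.13 for the Polycomb and -0.03 for the Trithorax list.

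The targeted genes differed in direction. Smad4 measured 36.6, 36.1 and 46.1 CPM in SA and 61.2, 69.7 and 72.5 in WT (log2 fold change -0.77, edgeR adjusted p = 0.00114). Apc measured 253, 194 and 197 CPM in SA and 62.5, 85.3 and 91.1 in WT (log2 fold change 1.43, adjusted p = 0.000185). A count over a whole transcript does not check the loss of the floxed exons.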

How the data were processed

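RNA sequencing was compared between tumors of 3 SA mice and normal penile epithelium of 3 WT mice. The authors aligned stranded paired-end reads to mm10 with TopHat, assessed them with FastQC and counted them with HTSeq. They deposited raw counts per RefSeq transcript, and the deposited FPKM and TPM values derive from these counts and entered no test here. DESeq2 was the test the authors named. Strand setting and tool versions are not given in the sources used here. Each of 24063 symbols was represented by its transcript row with the highest mean count, and 4914 symbols had several rows, 5 of them Hox members.

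Counts were tested in R 4.3.3 with edgeR 4.0.16, with TMM scaling, filterByExpr (10 counts at the median library, or 0.380 CPM, in at least 3 samples, and 15 in all), robust glmQLFit and glmQLFTest. The p-values were adjusted over 16336 genes by the Benjamini-Hochberg method. Thresholds were an adjusted p-value of 0.01 and a log2 fold change of 2. The standard error was the log2 fold change divided by the square root of F. Library totals were 23828283 to 110509147 counts, and intervals and floors cover counting error only. The test was checked on simulated counts. Alternatives were DESeq2 1.42.0, RLE size factors, library totals only, no filter, glmTreat, summed transcript rows, the replicate block, thinned counts and each sample left out. Coordinates, promoters and miRNAs are from RefSeq (GRCm38), and exons from GENCODE, and all 39 members were matched in both. Promoter windows were in the table for 22 members.

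Named are every Hox member, the genes of each list past both thresholds or else those with the largest changes at the adjusted p-value, the summed marker levels with their most abundant genes, and Smad4 and Apc. Meis1, Meis3, Pbx3, Hotair, Haglr, Hoxa11os, Evx2, Foxn1, Rarb and Cyp26b1, and the pairs of genes set in ratio, were chosen after their values were seen. Members and lists were chosen with earlier results of these data known. Several genes under this rule are left out of the text and figures.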

Additional observations from a re-analysis of the deposited data

How the results depend on the processing

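Hoxd10 and Hoxd11 passed both thresholds upward, and Hoxc13 downward, under every alternative run. The count upward was 2, or 3 with DESeq2 or no filter, which add Hoxd1. DESeq2 also called Hoxa6, Hoxb7 and Hoxd8 lower. The count downward was 2, with Hoxa2 near the line: it was 1 with library totals only, 4 with glmTreat, a test against a log2 fold change of 1, which added Hoxa3 and Hoxa9, 1 with counts thinned to the shallowest library, and 1 to 4 with 1 sample left out (1 without the first or the second SA tumor, 4 without the third). Members lower at the adjusted p-value numbered 10, with 10 to 14 over the alternatives other than glmTreat, and the 10 were called in each of these. Library totals only shifted the median log2 fold change of all genes by 0.29, to 0.31. The residuals of samples with the same replicate number had correlations of -0.13 to 0.02, so the numbers were not taken as pairs, and a replicate block gave 2 up and 2 down past both thresholds, and 2 higher and 11 lower, Hoxd8 being the added gene. Of the 35 tested members, the called ones kept their sign in every alternative. Depth limits members near 1 CPM, which the third SA library measures better than the others, and 4 members were below the filter.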

Other observations

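Rows of different transcripts of one gene share most reads, so their ratio shows the exons that differ. For Hoxa9, Hoxa10, Hoxb3 and Hoxd8 the second row held 0.939 to 0.951, 0.951 to 0.981, 0.956 to 1.00 and 0.999 to 1.00 of the first in SA, and 0.946 to 0.960, 0.952 to 0.963, 0.878 to 0.961 and 1.00 in WT, and the ranges of the groups overlapped or touched in all 4. For Hoxd8 a further row held 0.716 to 0.739 in SA and 0.697 to 0.730 in WT. The ranges for the rows of Hoxd11, given above, did not overlap. These ratios were not tested.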
